A study of Mus musculus with 9 samples.

Results

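The genes described here are 10 transcripts used as markers of mature oligodendrocyte states: Klk6, Anxa5, Pmp22, Sec11c, Apod, Il33, Ptgds, Car2, Qdpr and Acy3. They were chosen by symbol, with earlier results of these data known, and all 10 were among the 11315 genes measured in the series. The samples were brain cells of C57BL/6 mice at postnatal day 60, sorted by flow cytometry on 1 of 3 fluorescent reporters, with 3 RNA sequencing libraries each. PDGFRa::GFP cells (written PDGFRa-GFP below) are labelled as progenitors, PLP::GFP cells (PLP-GFP) as oligodendrocytes that do not yet myelinate, and NDRG1-eGFP cells as myelinating oligodendrocytes. A reporter gene marks the cells in which its promoter was active, or in which its protein persisted at the time of the sort. All 3 groups carried a fluorescent reporter and there was no unsorted group. Nothing in the labels tells whether the libraries of a group were made from different animals, and p-values cover only the spread between these libraries.

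Oligodendrocytes wrap axons in myelin, and surveys of single cells have split the mature ones into states that differ in a modest set of transcripts. In such surveys Klk6 with Anxa5 marks one state, frequent in white matter, while Ptgds, Il33, Apod and Car2 run together in another. Klk6 encodes a secreted serine protease that can cleave myelin proteins, Anxa5 a calcium-dependent binder of phosphatidylserine, Pmp22 a membrane protein of compact peripheral myelin, and Sec11c a catalytic subunit of the signal peptidase of the endoplasmic reticulum. Apod and Ptgds encode lipocalins, the second of which also makes prostaglandin D2, and Il33 encodes a nuclear cytokine released by damaged cells. Car2, Qdpr and Acy3 encode enzymes: a carbonic anhydrase, the reductase that regenerates tetrahydrobiopterin, and an aminoacylase that removes acetyl groups from mercapturic acids and aromatic amino acids.

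Klk6, Anxa5, Pmp22 and Acy3 were higher in NDRG1-eGFP than in both other groups, so the 250 bases before their transcript starts are shown, from RefSeq on GRCm38.p6. They are written 5′ to 3′ on the strand of the gene, with capitals for matches to 4 motifs searched on both strands. ACAAAG is the core of sites for SOX factors, TGANTCA the site of the AP-1 dimers of the immediate early response, and TATAAA the box that places some transcript starts. CTGGNAC, with any base at N, is wider than CTGGYAC (Y is C or T), the core of sites for the myelin regulator MYRF.
Klk6 first start, chr7:43824294-43824543, plus strand: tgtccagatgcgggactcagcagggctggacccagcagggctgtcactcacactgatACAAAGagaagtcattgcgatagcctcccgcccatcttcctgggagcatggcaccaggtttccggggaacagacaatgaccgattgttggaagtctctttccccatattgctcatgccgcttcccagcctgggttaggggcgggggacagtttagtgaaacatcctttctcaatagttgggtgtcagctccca
Klk6 second start, chr7:43825200-43825449, plus strand: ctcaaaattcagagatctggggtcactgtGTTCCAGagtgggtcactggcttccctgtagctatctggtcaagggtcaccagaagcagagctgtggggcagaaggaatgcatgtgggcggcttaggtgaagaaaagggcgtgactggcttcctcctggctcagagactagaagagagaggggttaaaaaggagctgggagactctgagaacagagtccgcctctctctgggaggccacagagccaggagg
Anxa5, chr3:36475888-36476137, minus strand: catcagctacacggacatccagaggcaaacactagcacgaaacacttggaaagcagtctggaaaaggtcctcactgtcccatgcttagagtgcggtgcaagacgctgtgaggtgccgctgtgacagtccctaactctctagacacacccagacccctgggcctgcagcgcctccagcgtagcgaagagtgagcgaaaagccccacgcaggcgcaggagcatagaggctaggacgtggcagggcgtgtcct
Pmp22 second start, chr11:63131207-63131456, plus strand: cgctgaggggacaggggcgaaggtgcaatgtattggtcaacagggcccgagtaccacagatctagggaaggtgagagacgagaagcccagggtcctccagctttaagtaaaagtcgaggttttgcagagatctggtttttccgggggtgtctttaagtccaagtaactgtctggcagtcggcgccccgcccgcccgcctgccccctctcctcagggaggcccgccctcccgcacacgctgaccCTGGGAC
Acy3, chr19:3986320-3986569, plus strand: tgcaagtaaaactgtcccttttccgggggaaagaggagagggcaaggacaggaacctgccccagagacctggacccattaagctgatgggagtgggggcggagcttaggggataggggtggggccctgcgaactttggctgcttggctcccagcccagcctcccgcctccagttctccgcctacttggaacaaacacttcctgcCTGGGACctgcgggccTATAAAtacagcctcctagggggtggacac

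The Klk6 window at the first start held ACAAAG at position -193 from the start, and that at the second start held CTGGNAC on the other strand at -221. Pmp22 held CTGGNAC at -7 from its second start and none of the 4 motifs in the windows of its other 3 starts, which are not shown, and Acy3 held CTGGNAC at -46 and TATAAA at -30. The Anxa5 window held none of the 4. RefSeq entries were matched by symbol for 8 of the 10 genes, with 13 windows, and none was matched for Car2. Windows on chromosome 18, where Sec11c lies, were left out of the search and of all shares of windows below. CTGGNAC was in 5 of these 13 windows, including those of Apod and Ptgds, and in 16.1% of all 32851 windows of the same length (15.3% of those taken for the measured genes). ACAAAG was in 2 of 13, in 16.5% of all windows and in 12.2% of those of measured genes. TATAAA was in 3 of 13, against 12.4% and 6.2%, and TGANTCA in 1 of 13, that of Ptgds, against 6.75% and 4.01%. No 2 matches overlapped in these windows.

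In GENCODE M21 on GRCm38, Klk6 lies on chromosome 7 at 43824499-43832030 (plus strand) and Anxa5 on chromosome 3 at 36448923-36475894 (minus strand), where it overlaps the microRNA gene Mir7009. Pmp22 lies on chromosome 11 at 63128982-63159547 and Sec11c on chromosome 18 at 65800515-65817684, both on the plus strand. Apod lies on chromosome 16 at 31296192-31314808 and Ptgds on chromosome 2 at 25466709-25470046, both on the minus strand. Il33 and Acy3 share chromosome 19, at 29925114-29960718 and 3986570-3990007, and Car2 lies on chromosome 3 at 14886273-14900770, all on the plus strand. Qdpr lies on chromosome 5 at 45434021-45450236 (minus strand) under an antisense gene, Gm42413, and Sec11c overlaps an unconfirmed transcript on the other strand. No source states whether counting used strand, so reads from these partners cannot be told apart from those of Qdpr and Sec11c. Acy3 shared 5.7% of its 50-base transcript windows with Gm48931, and its values are uncertain to that extent. The other 9 shared at most 0.3%. The longest annotated transcripts of the 10 genes ran from 860 bases (Sec11c) to 2544 (Il33), with a median of 1618, against 3242 over the 11272 annotated genes.

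The deposited values were log2 normalized values between 0.29 and 21.87, with a median of 10.57 in every library and nearly the same sorted values in all 9, so they rank genes within a library rather than measure its total. Read counts were not analysed here, and the depth behind each value is unknown. Oligodendrocyte markers (8 genes, among them Cnp and Mbp) took 8.95% to 10.5% of the sum of linear values in PDGFRa-GFP, 9.89% to 10.1% in PLP-GFP and 10.8% to 11.1% in NDRG1-eGFP libraries. Progenitor markers did not move as 1 set with the label of the PDGFRa-GFP group. The 8 measured of 9 summed to 0.0444% to 0.0619% there, 0.0677% to 0.083% in PLP-GFP and 0.072% to 0.0771% in NDRG1-eGFP libraries, a sum carried by Lrrn1, Matn4 and Ptprz1, while their median differences from PDGFRa-GFP were -0.31 in PLP-GFP and -0.95 in NDRG1-eGFP. Pdgfra itself was at 6.63 ± 1.05 (SD, n = 3 in each group), 2.71 ± 1.96 and 5.70 ± 0.65, and Ndrg1 at 16.80 ± 0.06, 16.84 ± 0.14 and 16.99 ± 0.06 in the same order. The groups are named by reporter below. For the 10 genes, effects of leaving out a library and of scaling are named where they end a call or turn a direction. The effect of a correction for transcript length, which ended several of the calls below, is given after them.

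Klk6, the protease, had values of 12.85, 12.75 and 12.88 in PLP-GFP (mean 12.83 ± 0.07 SD, n = 3 here and below), 14.42, 14.64 and 13.96 in PDGFRa-GFP (14.34 ± 0.35) and 15.52, 14.80 and 15.74 in NDRG1-eGFP libraries (15.35 ± 0.49). The groups did not overlap: every PLP-GFP library was below every PDGFRa-GFP library, and these were below every NDRG1-eGFP library. The NDRG1-eGFP mean exceeded that of PLP-GFP by 2.53 on the log2 scale (SE 0.24, 5.76-fold), with an adjusted p of 3.35e-05. Adjusted p-values here are from limma over all 11315 genes, and those under 0.05 are called. PLP-GFP fell by 1.51 (SE 0.24) against PDGFRa-GFP, with a limma adjusted p of 0.00527. The outer groups, NDRG1-eGFP against PDGFRa-GFP, differed by 1.01 (SE 0.24, limma adjusted p = 0.0146), which did not pass without NDRG1-eGFP replicate 1 (0.93, limma adjusted p = 0.0579). In bulk libraries, more cells of a state and more RNA per cell cannot be told apart.

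Anxa5 followed the same order, with 12, 12.30 and 12.15 in PLP-GFP (12.15 ± 0.15), 12.79, 12.63 and 12.68 in PDGFRa-GFP (12.70 ± 0.08) and 13.78, 13.24 and 13.73 in NDRG1-eGFP libraries (13.58 ± 0.30). Again no library of 1 group reached the range of another. NDRG1-eGFP rose by 1.44 over PLP-GFP (SE 0.16, 2.71-fold, limma adjusted p = 9.73e-05) and by 0.89 over PDGFRa-GFP (SE 0.16, limma adjusted p = 0.00396). PLP-GFP minus PDGFRa-GFP, -0.55 (SE 0.16), passed with a limma adjusted p of 0.0386. That call was lost in 5 of 9 fits that left out a library, those without replicate 1 or 2 of PDGFRa-GFP or without any 1 of the PLP-GFP replicates, with limma adjusted p from 0.0732 to 0.123 and differences from -0.63 to -0.48. It was also lost on recentring by compact myelin genes (-0.52, limma adjusted p = 0.052).

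Pmp22, which encodes a protein of peripheral myelin and belongs to a family shared with the EMP proteins, had 14.26, 14.41 and 14.39 in PLP-GFP (14.35 ± 0.08), 14.91, 14.90 and 14.51 in PDGFRa-GFP (14.77 ± 0.23) and 15.40, 15.25 and 15.51 in NDRG1-eGFP libraries (15.39 ± 0.13). All 3 NDRG1-eGFP libraries were above the other 6. NDRG1-eGFP was 1.03 above PLP-GFP (SE 0.14, 2.04-fold, limma adjusted p = 0.000284) and 0.61 above PDGFRa-GFP (SE 0.14, limma adjusted p = 0.0115). The PLP-GFP and PDGFRa-GFP libraries did not overlap either, but their difference of -0.42 (SE 0.14) did not pass, with a limma adjusted p of 0.057. Without PDGFRa-GFP replicate 3, the lowest of its group at 14.51, it was -0.55 and passed with a limma adjusted p of 0.00756.

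Sec11c, the signal peptidase subunit, was lower in PLP-GFP than in both other groups. Its values were 14.56, 14.41 and 14.49 in PLP-GFP (14.48 ± 0.07), 15.17, 15.58 and 15.80 in PDGFRa-GFP (15.52 ± 0.32) and 15.65, 15.50 and 15.53 in NDRG1-eGFP libraries (15.56 ± 0.08). The PLP-GFP mean fell by 1.04 against PDGFRa-GFP (SE 0.15, limma adjusted p = 0.00405), and NDRG1-eGFP was 1.08 above PLP-GFP (SE 0.15, 2.11-fold, limma adjusted p = 0.000414). The outer groups overlapped and differed by 0.04, with a 95% interval of -0.30 to 0.38, and the sign of that difference turned under 5 of 18 other settings.

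Acy3, the aminoacylase, was higher in NDRG1-eGFP than in both other groups. It stood at 9.62, 9.61 and 9.64 in PDGFRa-GFP (9.62 ± 0.01), 10.26, 9.56 and 9.31 in PLP-GFP (9.71 ± 0.49) and 11.37, 10.78 and 10.94 in NDRG1-eGFP libraries (11.03 ± 0.31). All 3 NDRG1-eGFP libraries were above all others, by 1.41 on average over PDGFRa-GFP (SE 0.24, 2.65-fold, limma adjusted p = 0.00341) and by 1.32 over PLP-GFP (SE 0.24, 2.5-fold, limma adjusted p = 0.00169). The lower pair overlapped and differed by 0.09, with a 95% interval of -0.45 to 0.63, and by -0.19 without PLP-GFP replicate 1.

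Apod, a lipocalin that carries arachidonic acid and sterols, differed by less. Its values were 16.97, 16.32 and 16.41 in PLP-GFP (16.57 ± 0.35), 17.13, 16.97 and 16.94 in PDGFRa-GFP (17.01 ± 0.10) and 17.30, 16.98 and 16.90 in NDRG1-eGFP libraries (17.06 ± 0.21). PLP-GFP replicate 1 lay among the libraries of the other groups. NDRG1-eGFP was 0.49 above PLP-GFP (SE 0.18, 1.41-fold, limma adjusted p = 0.0417), a call lost in 5 of 9 fits without a library. These were the fits without PDGFRa-GFP replicate 2, PLP-GFP replicate 2 or 3, or NDRG1-eGFP replicate 1 or 2, where the limma adjusted p ran from 0.0525 to 0.164 and the difference from 0.37 to 0.53. It was also lost on recentring by the median ratio (0.42, limma adjusted p = 0.0947) or on compact myelin genes (0.24, limma adjusted p = 0.274). Without PLP-GFP replicate 1 it was 0.69 and called, and PLP-GFP minus PDGFRa-GFP was then -0.64, with a limma adjusted p of 0.0323 in place of 0.107.

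Ptgds, the prostaglandin D synthase, had the largest SD within a group of the 10. It was at 19.04, 19.17 and 19.40 in PDGFRa-GFP (19.20 ± 0.18), 20.13, 18.50 and 18.60 in PLP-GFP (19.07 ± 0.91) and 18.39, 19.40 and 18.60 in NDRG1-eGFP libraries (18.80 ± 0.53). PLP-GFP replicate 1 was the highest of all 9. None of the 3 comparisons passed: NDRG1-eGFP minus PLP-GFP was -0.28 with a 95% interval of -1.16 to 0.61, and this turned to 0.25 without PLP-GFP replicate 1. NDRG1-eGFP minus PDGFRa-GFP was -0.41, with an interval of -1.29 to 0.48. PLP-GFP minus PDGFRa-GFP was -0.13, and -0.65 without PLP-GFP replicate 1. It turned to 0.16 without PLP-GFP replicate 2 and to 0.11 without PLP-GFP replicate 3. The intervals of both NDRG1-eGFP comparisons do not exclude a level lower by more than 1 on the log2 scale.

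The same PLP-GFP replicate 1 also had the highest Apod and Acy3 and the lowest Il33 of its group. In genes picked after their values were seen, it stood apart from replicates 2 and 3 of PLP-GFP for Cdkn1a, a cell cycle inhibitor (13.79 against 7.23 and 7.03), and for Fkbp5, a glucocorticoid-induced gene (11.27 against 8.88 and 8.79). The Y-linked Ddx3y was at 13.23 there and at 1.57 and 1.63 in the other two. The other groups were split too, with Ddx3y at 9.26, 12.43 and 0.32 in PDGFRa-GFP and at 8.64, 1.82 and 7.33 in NDRG1-eGFP libraries. The values for Apod and Ptgds without PLP-GFP replicate 1 are given above.

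Il33, the cytokine, was at 15.92, 15.62 and 15.43 in PDGFRa-GFP (15.66 ± 0.24), 14.82, 15.58 and 15.53 in PLP-GFP (15.31 ± 0.43) and 15.12, 16.13 and 15.52 in NDRG1-eGFP libraries (15.59 ± 0.51). All groups overlapped. The differences were 0.28 for NDRG1-eGFP minus PLP-GFP (95% interval -0.32 to 0.87), -0.35 for PLP-GFP minus PDGFRa-GFP (-0.94 to 0.25) and -0.07 for the outer groups (-0.67 to 0.53), and none passed. The last turned to 0.06 without PDGFRa-GFP replicate 1 and to 0.17 without NDRG1-eGFP replicate 1.

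Car2, the cytosolic carbonic anhydrase, had close group means. It was at 18.39, 18.39 and 18.12 in PDGFRa-GFP (18.30 ± 0.16), 18.60, 18.60 and 18.50 in PLP-GFP (18.57 ± 0.06) and 18.50, 18.84 and 18.39 in NDRG1-eGFP libraries (18.58 ± 0.24). NDRG1-eGFP minus PLP-GFP was 0.01, with a 95% interval of -0.32 to 0.34, which excludes the change of Klk6, Anxa5, Pmp22, Sec11c or Acy3, and its sign turned in 5 of 18 other settings. All 3 PLP-GFP libraries were above all 3 of PDGFRa-GFP, by 0.26 on average, but this did not pass (SE 0.15, limma adjusted p = 0.233).

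Qdpr, the dihydropteridine reductase, was at 16.59, 16.61 and 16.59 in PLP-GFP (16.60 ± 0.01), 16.79, 17.02 and 17.26 in PDGFRa-GFP (17.02 ± 0.23) and 17.05, 17.16 and 16.63 in NDRG1-eGFP libraries (16.95 ± 0.28). Every PLP-GFP library was below every other library, the nearest being 16.61 in PLP-GFP and 16.63 in NDRG1-eGFP. Neither difference passed: NDRG1-eGFP minus PLP-GFP was 0.35 (SE 0.16, limma adjusted p = 0.103) and PLP-GFP minus PDGFRa-GFP -0.42 (SE 0.16, limma adjusted p = 0.0966). The first passed without NDRG1-eGFP replicate 3 (0.51, limma adjusted p = 0.0269) and, barely, without PDGFRa-GFP replicate 3 (0.35, limma adjusted p = 0.0484).

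**Figure D1:**
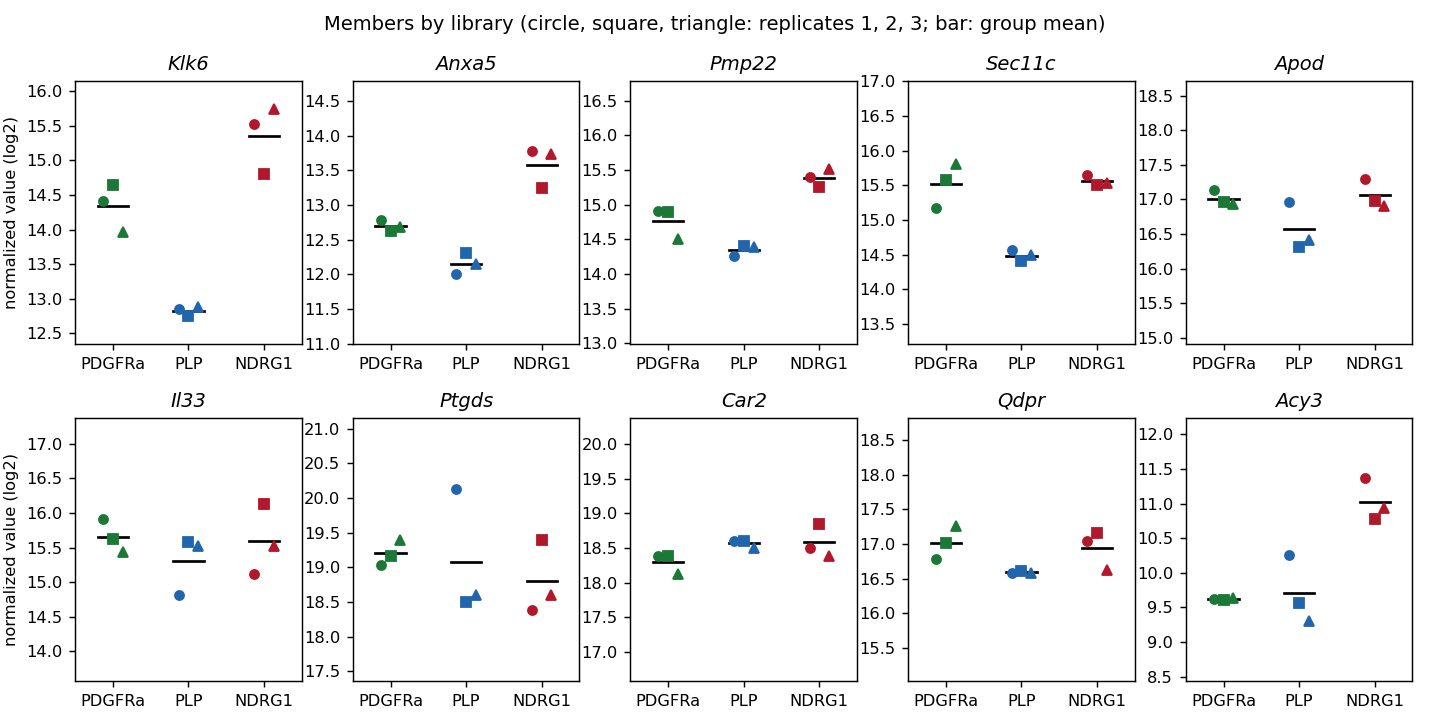
Normalized value (log2) of each of the 10 genes in the PDGFRa-GFP, PLP-GFP and NDRG1-eGFP libraries, with circle, square and triangle for replicates 1, 2 and 3 and a bar for the group mean; every panel spans the same number of log2 units. Klk6 runs from 12.75 in PLP-GFP to 15.74 in NDRG1-eGFP with no overlap of groups, Sec11c is lowest in the 3 PLP-GFP libraries, and the PLP-GFP circle of Ptgds stands at 20.13.

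Counted together, 6 of the 10 rose in NDRG1-eGFP against PLP-GFP (Klk6, Anxa5, Pmp22, Sec11c, Apod and Acy3) and none fell, where 26.1% of all 11315 genes rose and 22.2% fell. Their median difference was 0.76, against 0.08 over all genes. Libraries did not overlap for 6 of the 10, all higher, with Qdpr in the place of Apod; over all genes 36.6% were higher without overlap and 29.8% lower. In PLP-GFP against PDGFRa-GFP 3 fell (Klk6, Anxa5 and Sec11c) and none rose, where 8.53% of all genes fell and 8.46% rose, and the medians were -0.42 and 0.03. Here 5 of the 10 were lower without overlap (20.0% of all genes) and Car2 was higher (22.3%). In NDRG1-eGFP against PDGFRa-GFP 4 rose (Klk6, Anxa5, Pmp22 and Acy3, all without overlap, as were 21.0% of all genes) and none fell, where 10.7% rose and 10.4% fell. The medians there were alike, 0.16 and 0.14. Each pair of these comparisons shares a group, so they are not independent of each other. The 10 genes and the lists below were chosen with earlier results of these data known. Their counts beside the shares of all genes are therefore descriptive and no test of enrichment.

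The 3 comparisons depended on scaling to different degrees. Recentring each library by the median ratio took 0.08, 0.02 and 0.10 off the differences in the order above, and recentring on compact myelin genes took 0.25, -0.03 and 0.22. Over all genes the median ratio changed the called shares in NDRG1-eGFP against PDGFRa-GFP to 5.22% higher and 12% lower. Of the 4 genes called higher there, Pmp22 was lost on recentring by compact myelin genes (0.39, limma adjusted p = 0.083).

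Transcript length moved with the groups as well. In each library a smooth trend of the deviation from the gene's mean was fitted against the length of the longest transcript. At 1000 bases the trend stood at 0.48, 0.33 and 0.26 in the NDRG1-eGFP libraries, at -0.23, -0.50 and -0.45 in PLP-GFP and at -0.14, 0.03 and 0.48 in PDGFRa-GFP. At 8000 bases the order of the first 2 groups was turned, with -0.38, -0.34 and -0.17 in NDRG1-eGFP and 0.23, 0.43 and 0.33 in PLP-GFP libraries. All 10 genes lie on the short side, where NDRG1-eGFP libraries run high and PLP-GFP libraries low.

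**Figure D2:**
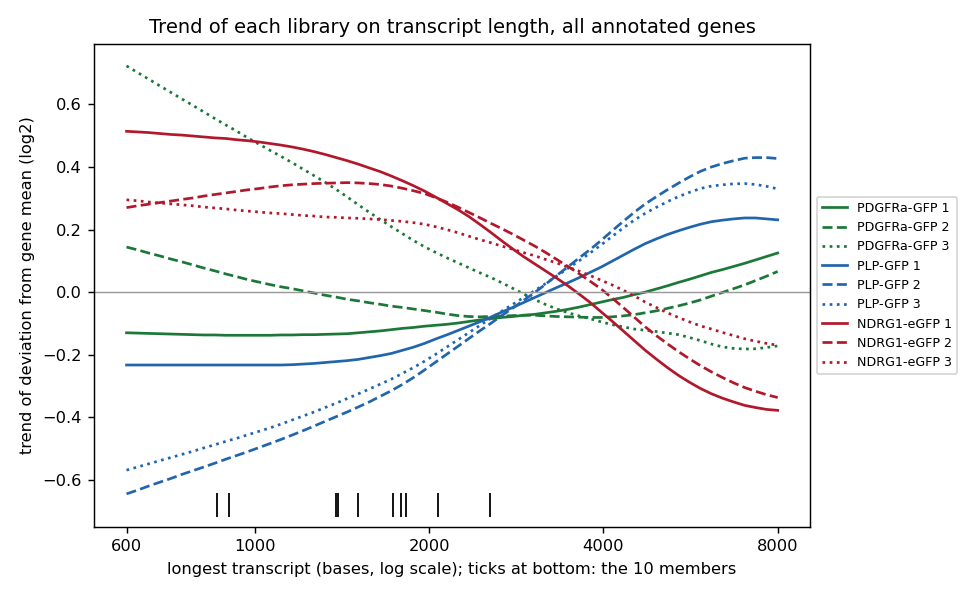
Trend of the deviation from the gene mean (log2) on the length of the longest transcript (bases, log axis), 1 line per library over all annotated genes; the ticks at the bottom mark the 10 genes. Lines of NDRG1-eGFP lie above and those of PLP-GFP below 0 at 1000 bases, and the order is turned at 8000 bases.

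With this trend removed, Klk6 remained higher in NDRG1-eGFP than in PLP-GFP by 1.86 (limma adjusted p = 0.00132), Anxa5 by 0.86 (0.00579) and Acy3 by 0.69 (0.0443). Pmp22 came to 0.49 (limma adjusted p = 0.0689), Sec11c to 0.30 (0.0554) and Apod to 0.04 (0.894), and these 3 no longer passed. Car2 came to -0.54 and was then called lower in NDRG1-eGFP (limma adjusted p = 0.0484), and Qdpr turned to -0.32 without passing. The count over the 10 genes thus went from 6 higher and 0 lower to 3 and 1, and over all annotated genes the shares were 14.0% and 16.4%. Their median came to 0.17, against 0.01 over all genes.

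In PLP-GFP against PDGFRa-GFP, Klk6 (-1.13, limma adjusted p = 0.0471) and Sec11c (-0.46, limma adjusted p = 0.0303) were still called lower with the trend removed, and Anxa5 was not (-0.28, limma adjusted p = 0.374). Over all genes 2.94% were then higher and 4.89% lower. In NDRG1-eGFP against PDGFRa-GFP, of the 4 only Acy3 was still called, at 1.12 (limma adjusted p = 0.0092). Klk6 came to 0.73 (limma adjusted p = 0.136), Anxa5 to 0.59 (0.0586) and Pmp22 to 0.31 (0.286), with 4.41% of all genes higher and 9.97% lower. Whether the trend belongs to the cells or to the libraries was not tested.

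**Figure D3:**
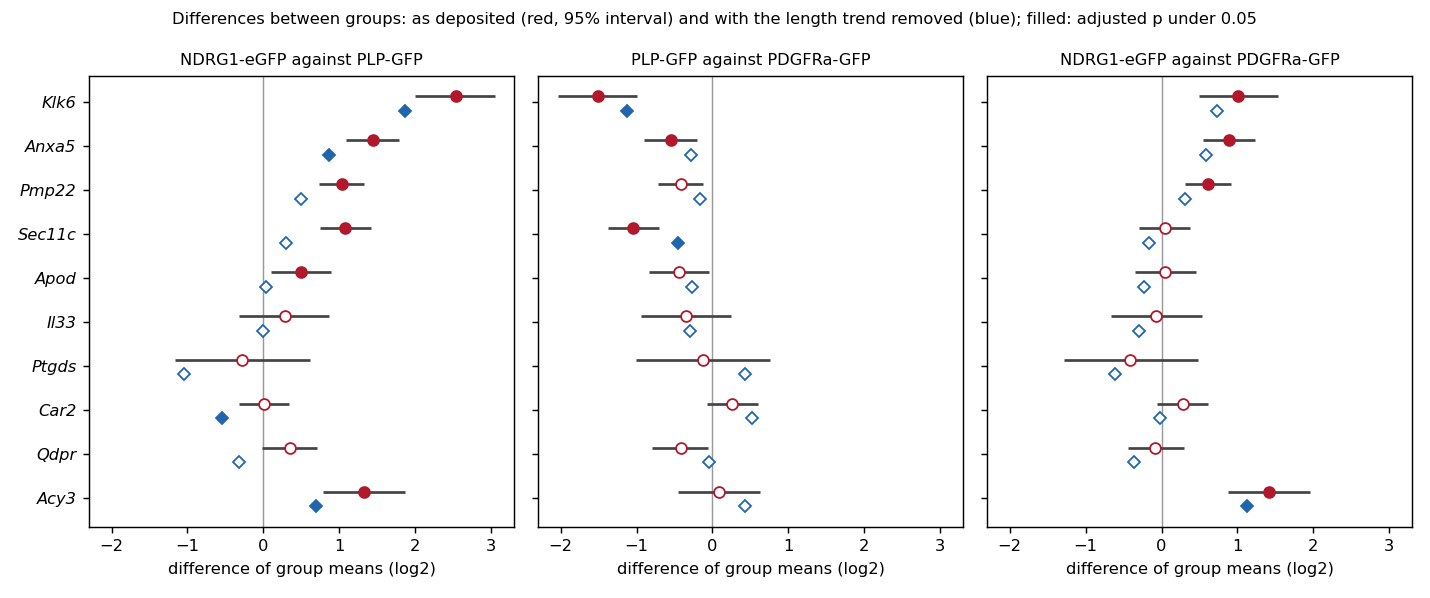
Difference of group means (log2) for the 10 genes in the 3 comparisons, as deposited (red circles with the 95% interval of the limma fit) and with the length trend removed (blue diamonds); filled symbols have an adjusted p under 0.05. Klk6 stays filled in both settings for the first 2 comparisons (2.53 and 1.86, -1.51 and -1.13), while the blue diamond of Car2 in the first lies at -0.54.

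Among themselves the 10 genes did not move as 1 block. Over the 9 libraries, which share their group differences, Pearson's r was 0.96 for Klk6 with Pmp22 and for Anxa5 with Pmp22, 0.94 for Klk6 with Anxa5, and 0.84 for Klk6 with Sec11c. Acy3 ran with Anxa5 (0.81) and Qdpr with Sec11c (0.81). Ptgds ran with none of these: r was -0.28 with Klk6 and -0.43 with Anxa5, the lowest of all pairs. For Klk6 it was 0.23 with Il33, -0.12 with Car2 and 0.71 with Apod, which also ran with Sec11c (0.72). Among Ptgds, Il33, Apod and Car2, r lay between -0.19 (Il33 with Ptgds) and 0.27 (Apod with Ptgds). Within NDRG1-eGFP, replicate 2 was the lowest of 3 for Klk6, Anxa5, Pmp22, Sec11c and Acy3 and the highest for Il33, Ptgds, Car2 and Qdpr.

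The genes whose values ran closest to the 3 members that differed most between groups (between-group F of 58.11 for Klk6, 42.38 for Anxa5 and 32.07 for Sec11c) were picked by Pearson's r over the 9 libraries. For Klk6 they were Wbp1 (0.985), Gng11 (0.985) and Gipc1 (0.984). For Anxa5 they were Slc34a3 (0.990), Sccpdh (0.987) and Mdp1 (0.983). For Sec11c they were Ninj2 (0.995), Atp6v0b (0.990) and Fbxo6 (0.990). Each was lowest in PLP-GFP, which follows from how they were picked and is no separate result. Ninj2, a membrane protein also on the list of mature oligodendrocyte genes below, was at 12.55 ± 0.44 in PDGFRa-GFP, 10.85 ± 0.10 in PLP-GFP and 12.61 ± 0.20 in NDRG1-eGFP.

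Other genes known from mature oligodendrocyte states were counted next, 24 of 24 measured. In NDRG1-eGFP against PLP-GFP 13 rose and 3 fell, with a median of 0.73, where 26.1% of all genes rose and 22.2% fell. Ppp1r14a, an inhibitor of myosin phosphatase, rose by 1.64 (SE 0.16), Gltp, a glycolipid transfer protein, by 1.06 (SE 0.10) and Ninj2 by 1.76 (SE 0.20). In PLP-GFP against PDGFRa-GFP 6 fell and 1 rose, with Ninj2 at -1.70 (SE 0.20), Mgst3, a microsomal glutathione transferase, at -1.25 (SE 0.23) and Ppp1r14a at -1.03 (SE 0.16). In NDRG1-eGFP against PDGFRa-GFP 6 rose and 1 fell, with Gltp at 0.77 (SE 0.10), Gsn, which severs actin filaments, at 0.76 (SE 0.17) and Pex5l at -0.95 (SE 0.19). Over all genes 8.53% fell and 8.46% rose in the second comparison, and 10.7% rose and 10.4% fell in the third. With the length trend removed the counts of the 24 were 7 higher and 4 lower, 0 and 4, and 1 and 1. The shares of all genes were then 14.0% and 16.4%, 2.94% and 4.89%, and 4.41% and 9.97%.

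Of 14 other kallikreins, receptors and inhibitors listed for Klk6, only the protease inhibitors Serpine2 and Serpini1 were among the genes measured, and neither passed in any of the 3 comparisons. Of 10 measured annexins and S100 partners, the relatives of Anxa5, 6 rose in NDRG1-eGFP against PLP-GFP (26.1% of all genes) and none fell. The median there was 1.5. In PLP-GFP against PDGFRa-GFP 5 fell (8.53% of all genes), with a median of -0.99. Anxa3 rose by 3.58 (SE 0.67) and fell by 3.67 (SE 0.67) in these, Anxa7 by 1.28 (SE 0.21) and 0.96 (SE 0.21), and S100a10, the partner of annexin A2, by 1.76 (SE 0.29) and 1.55 (SE 0.29). None passed between the outer groups, with a median of 0.42. With the length trend removed 3 rose in the first comparison and 3 fell in the second, against 14.0% and 4.89% of all genes. S100a11, counted here, shares 41.1% of its transcript windows with other loci and is uncertain.

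Relatives of Pmp22 moved in both directions. Of 8 measured EMP genes and claudins, 1 rose (Emp3, 2.20, SE 0.64) and 3 fell in NDRG1-eGFP against PLP-GFP, with a median of -0.63. Over all genes 26.1% rose and 22.2% fell in that comparison. Tmem47 fell by 1.2 (SE 0.34), and Cldn11, the claudin of the radial component of myelin, by 0.58 (SE 0.21). Against PDGFRa-GFP, Cldn11 in NDRG1-eGFP fell by 1.08 (SE 0.21). Compact myelin genes, 10 of 10 measured, gave 3 higher and 1 lower against PLP-GFP, beside 26.1% and 22.2% of all genes. Mog was 0.94 (SE 0.13) and Opalin 1.13 (SE 0.18) higher.

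Of 21 genes for the signal peptidase and entry into the endoplasmic reticulum, the setting of Sec11c, 10 rose and 4 fell in NDRG1-eGFP against PLP-GFP. Over all genes 26.1% rose and 22.2% fell in that comparison. Srp19, of the signal recognition particle, rose by 0.98 (SE 0.15) and Ssr4, of the translocon-associated complex, by 1.13 (SE 0.18). Sec11a, the other catalytic subunit of the peptidase and picked after its value was seen, rose by 0.73 (SE 0.19). Sec61g fell by 3.73 (SE 0.27), but it shares 14.8% of its transcript windows with other loci and is uncertain. Srp54a (70.5%), Srpr (17.7%) and Sec61b (17.4%), also in these counts, are uncertain for the same reason. In PLP-GFP against PDGFRa-GFP 6 fell, among them Srp9 (-0.95, SE 0.14) and Ssr4 (-0.98, SE 0.18), and 2 rose. Over all genes 8.53% fell and 8.46% rose there. With the length trend removed, the first count became 4 higher and 6 lower and the second 0 and 2. The shares of all genes were then 14.0% and 16.4%, and 2.94% and 4.89%. In the outer comparison 2 rose and 2 fell, or 2 and 6 with that trend removed. Over all genes these were 10.7% and 10.4%, or 4.41% and 9.97%.

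Genes of prostaglandin synthesis and response moved where Ptgds did not pass. Of 12 measured, 8 rose and 1 fell in NDRG1-eGFP against PLP-GFP, where 26.1% of all genes rose and 22.2% fell. In PLP-GFP against PDGFRa-GFP 4 fell (8.53% of all genes). With the length trend removed, 5 rose and 1 fell in the first comparison (14.0% and 16.4% of all genes). In the second, 4 fell again (4.89%). Pla2g16, a phospholipase, rose by 0.64 (SE 0.10) and Cbr1, a carbonyl reductase, by 0.75 (SE 0.14). From PDGFRa-GFP to PLP-GFP, Ptges, the inducible prostaglandin E synthase, fell by 3.15 (SE 0.67), Ptgis, the prostacyclin synthase, fell by 5.24 (SE 1.0) and Ptgdr, a receptor of prostaglandin D2, fell by 4.61 (SE 0.82). Ptges3 fell by 2.49 (SE 0.26) from PLP-GFP to NDRG1-eGFP, but with 19.6% shared windows it is uncertain.

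The receptor of Il33, Il1rl1, was not among the genes measured. Of 16 measured genes of IL-1 family signalling, 5 rose and 2 fell in NDRG1-eGFP against PLP-GFP, against 26.1% and 22.2% of all genes: the adaptor Myd88 rose by 1.58 (SE 0.21) and the ligase Traf6 fell by 1.44 (SE 0.22). In PLP-GFP against PDGFRa-GFP 3 rose and 2 fell, beside 8.46% and 8.53% of all genes, with Myd88 at -1.02 (SE 0.21). None rose there with the length trend removed, where 2.94% of all genes did. In the outer comparison only Irak4 passed (0.84, SE 0.25), where 10.7% of all genes rose and 10.4% fell.

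Among 9 measured carbonic anhydrases and bicarbonate transporters, Car13, a cytosolic relative of Car2, rose by 1.41 (SE 0.27) in NDRG1-eGFP against PLP-GFP and its PLP-GFP minus PDGFRa-GFP value was of the same size, -1.41 (SE 0.27). Car14, a membrane form, rose by 0.87 (SE 0.18), and the sodium bicarbonate cotransporter Slc4a4 fell by 3.69 (SE 0.50). Of the genes of tetrahydrobiopterin synthesis, around Qdpr, the synthase Pts rose by 1.14 (SE 0.20) in that comparison. Of 9 measured aminoacylase and acetylaspartate genes, around Acy3, 4 rose and 1 fell there, beside 26.1% and 22.2% of all genes. Acy1, another cytosolic aminoacylase, rose by 0.98 (SE 0.13) and Acss2, an acetyl-CoA synthetase, by 0.81 (SE 0.13). Folh1, which cleaves acetylaspartylglutamate, fell by 0.94 (SE 0.14). Acy1 and Acss2 also rose over PDGFRa-GFP, by 0.52 (SE 0.13) and 0.72 (SE 0.13), as Acy3 did. With the length trend removed, 2 rose and 1 fell against PLP-GFP in that list (14.0% and 16.4% of all genes), and Acy1 passed in neither comparison.

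Markers of other cells moved with the same groups. Of 12 measured fibroblast-like and meningeal markers, 10 rose in NDRG1-eGFP against PLP-GFP (26.1% of all genes). The same number of these markers fell in PLP-GFP against PDGFRa-GFP (8.53% of all genes). Their library medians were 9.68, 8.90 and 9.19 in PDGFRa-GFP, 4.31, 5.72 and 5.13 in PLP-GFP, and 9.44, 9.55 and 7.39 in NDRG1-eGFP. Their summed share was 0.0134% to 0.0249%, 0.000694% to 0.00116% and 0.00569% to 0.0214% in that order, and Mgp, Col1a2 and Slc47a1 were the most abundant. Endothelial and pericyte lists had 1 measured gene each, Cldn5 and Vtn.

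Of microglial markers, 8 of 11 rose in NDRG1-eGFP against PLP-GFP (26.1% of all genes), and 4 with the length trend removed (14.0%). Their library medians were 8.49, 8.33 and 7.63 in PDGFRa-GFP, 7.15, 7.52 and 7.17 in PLP-GFP and 9.33, 8.43 and 9.15 in NDRG1-eGFP. The summed share of these markers was 0.00556% to 0.0169% over all 9 libraries. Of the genes induced early by stimuli and by tissue dissociation, 13 of 18 rose in that comparison (26.1% of all genes). In PLP-GFP against PDGFRa-GFP 6 of the 18 fell (8.53% of all genes). With the length trend removed these were 5 (14.0% of all genes) and 2 (4.89%). Their medians were 12.64, 12.64 and 8.78, then 8.33, 7.88 and 8.21, then 11.84, 9.65 and 12.84 in the same order, with summed shares of 0.0664% to 0.437%, 0.0464% to 0.0603% and 0.0814% to 0.468%. Of the markers of choroid plexus, where Ptgds is also expressed, 1 of 6 fell in NDRG1-eGFP against PLP-GFP (22.2% of all genes). Ttr was highest of its group in NDRG1-eGFP replicate 1 (15.58), which had the lowest Ptgds of that group, and in PLP-GFP replicate 1 (11.05), which had the highest Ptgds of all 9. Of 9 astrocyte markers, 1 rose in NDRG1-eGFP against PLP-GFP (26.1% of all genes) and 1 fell in PLP-GFP against PDGFRa-GFP (8.53%). None of these passed between the outer groups, where 10.7% of all genes rose and 10.4% fell. Of 6 measured neuron markers, none passed in any of the 3 comparisons. The part of these cells and of dissociation in the differences of the 10 genes was not tested.

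**Figure D4:**
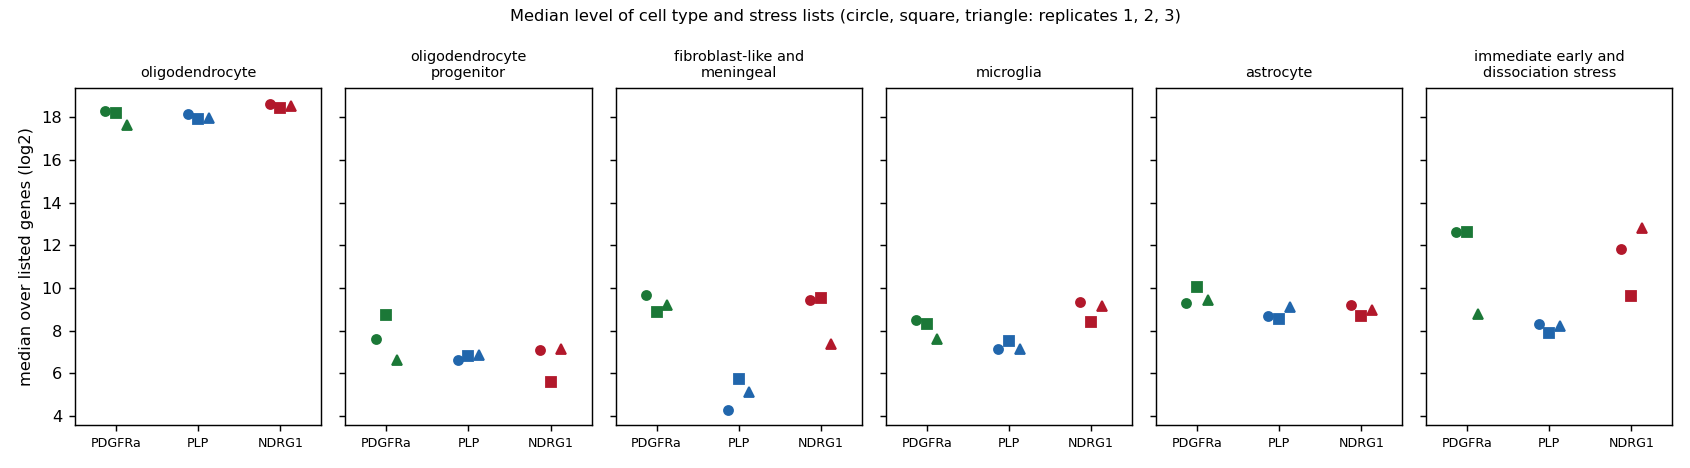
Median value (log2) over the measured genes of 6 marker lists in each library, with circle, square and triangle for replicates 1, 2 and 3. The fibroblast-like median is 4.31 to 5.72 in PLP-GFP and 7.39 to 9.68 in the other groups, while the oligodendrocyte median lies between 17.65 and 18.65 in all 9.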

How the data were processed

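Each of the 9 libraries came as 1 table of symbols and normalized values, per the file headers. The deposited values were log2 values that the authors had normalized; BWA, DESeq2 1.2.5 and mm10 appear, without their roles, in the submitters' processing notes, and depth is not given in the sources used here. Per the labels' protocols, RNA and DNA were taken from the same pellets, with DNase on the column. The 10 genes and all lists were chosen with earlier results of these data known.

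limma-trend (limma 3.58.1, R 4.3.3) was fitted to the values as deposited, with all 9 libraries together and 1 coefficient for each group, two-sided, with Benjamini-Hochberg adjustment over 11315 genes and a threshold of 0.05. With 3 libraries against 3, an exact permutation test cannot go below 0.1, and none was used. On simulated data over 11315 genes with 100 changed at each size, it recovered 51% of changes of log2 1 and 87% of log2 2 between NDRG1-eGFP and PLP-GFP, 45% and 82% between PLP-GFP and PDGFRa-GFP, and 48% and 87% between the outer groups. Far more genes were called in the real data (2953 higher and 2507 lower in NDRG1-eGFP against PLP-GFP). The Benjamini-Hochberg threshold depends on that number, so the simulated shares do not give the recovery in the real fit. Standard errors and 95% intervals are those of the limma fit to the deposited values.

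Lengths and positions came from GENCODE M21, with 11272 symbols matched, 343 through an older symbol. Windows of 50 bases found in another gene counted as shared, and over 5% made a gene uncertain. In 17 rows the symbol had become a date. The length trend was a lowess with a span of 0.3. Alternatives were recentring by the median ratio or on compact myelin genes, a mean of at least 8, 1 added on the linear scale, the length trend removed, a replicate block, robust empirical Bayes, an adjusted p under 0.01, only the groups compared, and leaving out each library.

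Named genes were the 10; up to 3 of each functional list with the smallest adjusted p in each comparison; for the 3 of the 10 with the largest F, the 3 genes with the highest r, passing over predicted genes and pseudogenes; and up to 3 abundant markers of each cell type. Some results for single listed genes are not reported here.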

Additional observations from a re-analysis of the deposited data

How the results depend on the processing

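Removing the length trend moved the counts over the 10 genes most: in NDRG1-eGFP against PLP-GFP from 6 higher and 0 lower to 3 and 1, and in NDRG1-eGFP against PDGFRa-GFP from 4 higher to 1. An adjusted p under 0.01 left 2 of the latter. Klk6, Anxa5 and Acy3 kept their call in NDRG1-eGFP against PLP-GFP, Klk6 and Sec11c in PLP-GFP against PDGFRa-GFP, and Acy3 in NDRG1-eGFP against PDGFRa-GFP, in all 18 settings. The sign turned only in differences that were not called as deposited. With the length trend removed, NDRG1-eGFP minus PLP-GFP was -0.005 for Il33, -0.54 for Car2 and -0.32 for Qdpr, PLP-GFP minus PDGFRa-GFP was 0.43 for Ptgds, and NDRG1-eGFP minus PDGFRa-GFP was -0.16 for Sec11c, -0.23 for Apod and -0.02 for Car2. Recentred by the median ratio, Car2 was -0.07 in the first comparison, and Sec11c was -0.06 and Apod -0.05 in the last; recentred on compact myelin genes these were -0.24, -0.18 and -0.17. Leaving out 1 library gave, for NDRG1-eGFP minus PLP-GFP, -0.58 to 0.25 for Ptgds and -0.12 to 0.10 for Car2; for PLP-GFP minus PDGFRa-GFP, -0.65 to 0.16 for Ptgds and -0.19 to 0.28 for Acy3; and for NDRG1-eGFP minus PDGFRa-GFP, -0.13 to 0.18 for Sec11c, -0.07 to 0.13 for Apod, -0.34 to 0.17 for Il33 and -0.19 to 0.09 for Qdpr. Klk6 in NDRG1-eGFP against PDGFRa-GFP was lost without NDRG1-eGFP replicate 1 (0.93, limma adjusted p = 0.0579) and in the fit of only those groups (0.0503). The cause was not tested. Depth is unknown and limits the lower values by an amount that could not be given.

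Libraries with the same replicate number did not deviate together (r from -0.23 to 0.09, and from -0.13 to 0.23 for other numbers), so the numbers were not used as pairs. With a replicate block, 6 of the 10 genes were higher in NDRG1-eGFP against PLP-GFP, 2 lower in PLP-GFP against PDGFRa-GFP (Anxa5 at an limma adjusted p of 0.0853) and 4 higher in NDRG1-eGFP against PDGFRa-GFP.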
